A study of Mus musculus with 5 samples.

Results

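The genes described here encode the EGF-like growth factors epiregulin (Ereg), betacellulin (Btc), heparin-binding EGF-like growth factor (Hbegf) and transforming growth factor alpha (Tgfa), and the receptors Egfr, Erbb2 and Erbb3 of the ERBB family. They were taken as all probe sets whose platform annotation gives 1 of these 7 symbols alone, which found 18 of the 45101 probe sets on the array and 7 of 18194 named genes. Gene expression was measured in mouse ovarian granulosa cells with Affymetrix expression arrays, with 1 array for each of 5 groups and so no replicates. Cells of the conditional knockout (KO), which is fl/fl for each of CEBPα/β and carries Cyp19-cre, were taken 4, 8 and 24 h after human chorionic gonadotropin (hCG). Cells labelled wild type (WT) were taken at 8 and 24 h, and no wild type of 4 h was analysed here. All mice had received equine chorionic gonadotropin (eCG) for 48 h before hCG, and their age was 23 days for the arrays of 4 and 8 h and 24 days for those of 24 h. The Cyp19 promoter drives the recombinase in granulosa cells. The labels do not say whether the wild type carried floxed alleles or Cre, or how many animals were pooled for an array.

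The preovulatory surge of luteinizing hormone, for which hCG stands in, acts on the mural granulosa cells of the follicle. These cells then make EGF-like factors as membrane-bound precursors, which metalloproteases such as ADAM17 release. The freed factors bind EGFR on granulosa and cumulus cells, switch on ERK signalling and so lead to cumulus expansion and the resumption of meiosis in the oocyte. ERBB2 has no known ligand of its own and works as the partner of other ERBB receptors, while ERBB3 binds neuregulins and has little kinase activity. In granulosa cells, C/EBPα and C/EBPβ are known as mediators downstream of ERK.

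The deposited values are intensities on a linear scale. The size rule asked for a 2-fold difference or more (1 on the log2 scale) and for a higher value at or above 22, the 40th percentile of all values, which is called the floor. It used the values as read, also where the lower one was under the floor. A fold given as "at least" sets that lower value to the floor, so it can be under 2 for a gene that passed. With 1 array per group there is no test and no p-value. Where a gene has several probe sets, the one with the highest mean log2 intensity stands for it. Different probe sets of 1 gene gave log2 genotype differences that spread by 0.26 (SD) for the 8 h arrays and 0.39 for those of 24 h. This is a spread between probe sets on the same arrays and does not measure variation between animals. Cebpa had an intensity of 19 in KO and 685 in WT at 8 h, 38 in KO and 352 in WT at 24 h, and 40 in KO at 4 h. Cebpb had an intensity of 1127 in KO and 7436 in WT at 8 h, 85 in KO and 3976 in WT at 24 h, and 42 in KO at 4 h. All 11 granulosa markers with a probe set, among them Fshr, Inha and Foxl2, were above the floor on every array. The KO array at 4 h stood apart, with a median intensity of 54 against 31 or 32 on the other 4 arrays, so it was quantile normalized to those 4 before it was compared. The floor for that comparison was 18.75, the 40th percentile of the normalized values. Of all genes tested, 18.0% were higher and 12.0% lower at 8 h than on the normalized 4 h array, and different probe sets of a gene spread by an SD of 0.82 in that comparison.

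Of the 18 member probe sets, 14 were at or above the floor on all 5 arrays, 2 on some of the arrays and 2 on none, namely 1457563_at of Egfr and 1452482_at of Erbb3. Each of the 7 genes had at least 1 probe set above the floor on every array.

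**Figure D1:**
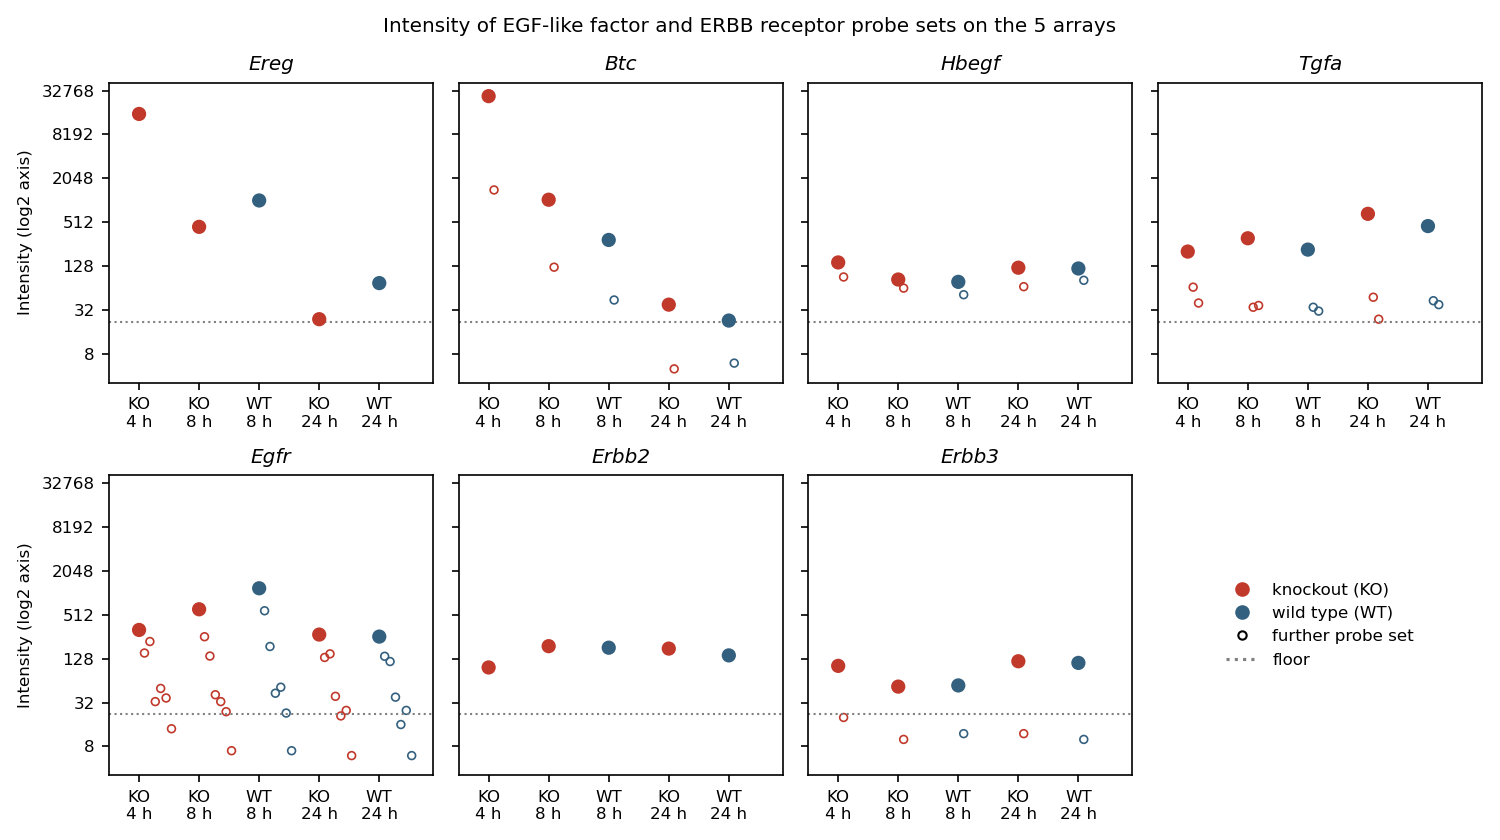
Intensity (log2 axis) of each member probe set on each of the 5 arrays, with knockout arrays in red and wild-type arrays in blue; filled points are the probe set that stands for the gene, open points further probe sets, and the dotted line the floor of 22. Ereg and Btc are highest at 4 h and near the floor at 24 h, Egfr is highest in WT at 8 h, and Hbegf and Erbb2 vary little at 8 and 24 h.

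Among the ligands, epiregulin and betacellulin differed between the genotypes in opposite directions at 8 h. Epiregulin, which is released by mural granulosa cells after the surge, was lower in the knockout at both times. On its only probe set, 1419431_at, the intensity was 443 in KO and 1019 in WT at 8 h, and 24 in KO and 75 in WT at 24 h. The KO array lay below its WT partner at each time, 2.30-fold at 8 h (log2 difference -1.20) and 3.12-fold at 24 h (-1.64). The KO value at 24 h was just above the floor, so the difference there is coarse. From the lowest end, Ereg ranked 387 of 12924 genes tested at 8 h and 169 of 13052 at 24 h.

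Betacellulin, a ligand of EGFR and ERBB4, was higher in the knockout at 8 h. On probe set 1435541_at it read 1043 in KO and 293 in WT at 8 h, 3.56-fold higher (log2 difference 1.83). Its second probe set (1421161_at) had 124 in KO and 44 in WT, 2.82-fold higher (1.49). Both probe sets therefore passed the rule in the same direction, and Btc ranked 35 of 12924 from the highest end. At 24 h the first gave 38 in KO and 23 in WT (0.72), short of the rule, and the second was under the floor in both, at 5 in KO and 6 in WT. The difference of Btc minus that of Ereg was 3.03 on the log2 scale at 8 h and 2.37 at 24 h.

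The other ligands did not pass the rule between genotypes. Tgfa, whose product binds EGFR, had 309 in KO and 216 in WT at 8 h and 668 in KO and 454 in WT at 24 h (1421943_at). Those log2 differences of 0.52 and 0.56 point the same way at both times. Its dimmer probe sets did not share them, with 35 in KO and 35 in WT at 8 h and 48 in KO and 43 in WT at 24 h on 1421942_s_at, and 37 in KO and 31 in WT at 8 h but 24 in KO and 38 in WT at 24 h on 1450421_at. Hbegf had 84 in KO and 78 in WT at 8 h and 122 in KO and 119 in WT at 24 h (1418350_at), so its genotypes differed by 0.11 and 0.04, less than the spread between probe sets. On 1418349_at, Hbegf had 64 in KO and 52 in WT at 8 h and 67 in KO and 82 in WT at 24 h.

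Among the receptors, Egfr was lower in the knockout at 8 h and close to wild type at 24 h. Probe set 1435888_at, which stands for the gene, had 609 in KO and 1182 in WT at 8 h, a log2 difference of -0.96 that just missed the rule. Probe set 1424932_at had 256 in KO and 581 in WT, 2.27-fold lower (-1.18), and passed it. At 24 h these probe sets had 274 in KO and 257 in WT, and 133 in KO and 138 in WT, differences of 0.09 and -0.05. The difference at 8 h was smaller on the other probe sets of Egfr. It was -0.66 on 1451530_at (33 in KO, 52 in WT), -0.44 on 1460420_a_at (139 in KO, 188 in WT), -0.07 on 1432647_at (41 in KO, 43 in WT) and 0.06 on 1454313_at (24 in KO, 23 in WT). At 24 h these 4 had 21, 149, 39 and 25 in KO, against 16, 117, 38 and 25 in WT.

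Erbb2 and Erbb3 did not pass the rule at either time. Erbb2 (1424919_at) had 190 in KO and 181 in WT at 8 h and 176 in KO and 142 in WT at 24 h, differences of 0.07 and 0.31. Erbb3 (1434606_at) had 53 in KO and 55 in WT at 8 h and 118 in KO and 112 in WT at 24 h, differences of -0.05 and 0.08. All of these lie within or near the spread between probe sets, which without replicates does not show that the genotypes were alike.

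**Figure D2:**
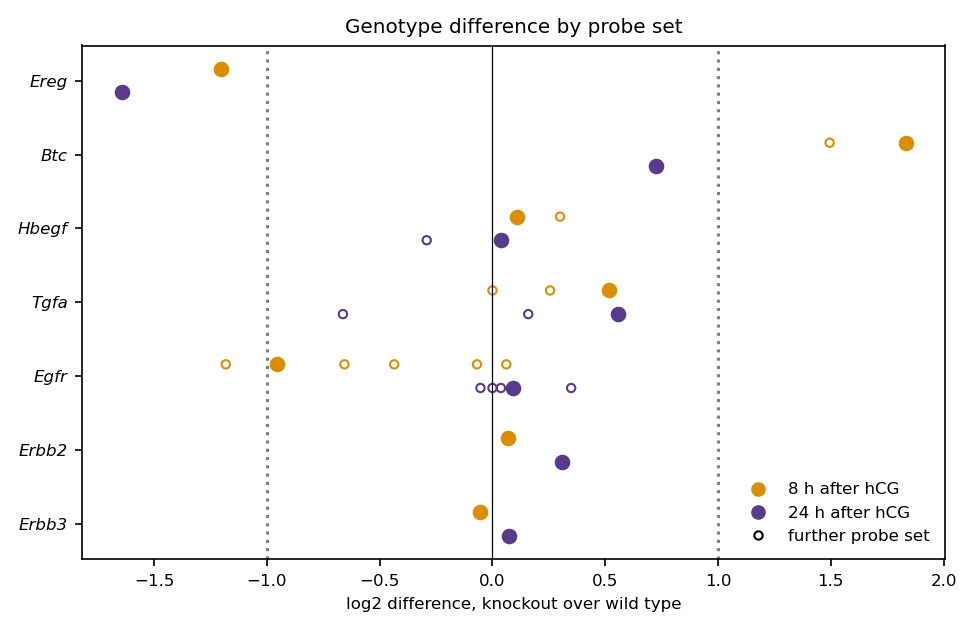
Log2 difference of knockout over wild type (x axis) for each member gene (rows) at 8 h (orange) and 24 h (purple); filled points are the probe set that stands for the gene, open points further probe sets, with probe sets under the floor in both arrays left out, and dotted lines mark a 2-fold difference. Ereg lies left of -1 at both times, Btc right of 1 at 8 h on both probe sets, and the Egfr points at 8 h run between -1.18 and 0.06.

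At 8 h, Btc was the 1 member gene of 7 that was higher by the rule, against a background of 1.58% of all genes tested, and Ereg the 1 that was lower, against 4.05%. At 24 h none of 7 was higher, against 3.13%, and Ereg was again the 1 that was lower, against 3.92%. The median difference of the 7 genes was 0.07 at 8 h and 0.09 at 24 h, beside -0.01 and 0.05 over all genes tested. The genes just inside and just outside the rule were Ereg (-1.20) and Egfr (-0.96) at 8 h.

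Markers of other cells moved with the genotype on the same arrays. All 12 stroma and smooth muscle markers were lower in the knockout at 8 h, with a summed intensity of 6142 in KO and 27621 in WT. All 10 endothelium markers were lower there too, with a sum of 566 in KO and 2002 in WT and with Pecam1, Tek and Tie1 under the floor in KO. At 24 h, 3 of 12 stroma markers were lower (sums of 12748 in KO and 18922 in WT) and 3 of 9 endothelium markers (612 in KO and 1271 in WT). Of 11 granulosa markers, Fst, the activin binder, was lower at 8 h and none passed at 24 h, with sums of 52964 in KO and 53259 in WT at 8 h and 73256 in KO and 72390 in WT at 24 h. Theca markers had 3 of 6 lower at 8 h (1750 in KO, 3020 in WT) and none past the rule at 24 h (1625 in KO, 1448 in WT). Leukocyte markers had 4 of 9 lower and 1 higher at 8 h (803 in KO, 1358 in WT) and 2 of 9 lower at 24 h (1224 in KO, 1906 in WT). Of 6 surface epithelium markers, 2 were higher at 8 h (2360 in KO, 1402 in WT) and 1 lower at 24 h (2150 in KO, 2055 in WT), and of 8 oocyte markers none passed at either time (4293 in KO and 4925 in WT at 8 h, 4175 in KO and 3750 in WT at 24 h). The part of these cells in the Ereg, Btc and Egfr differences was not tested. In such mixed preparations, fewer cells of a type and less RNA per cell cannot be told apart.

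Between 8 and 24 h, Ereg, Btc and Egfr were lower at the later time in both genotypes, and Tgfa and Erbb3 higher. In KO, Ereg had 24 at 24 h against 443 at 8 h, 18.5-fold lower (log2 difference -4.21), and in WT 75 at 24 h against 1019 at 8 h, 13.6-fold lower (-3.76). Btc was 27.4-fold lower at 24 h in KO, at 38 against 1043, and 12.7-fold lower in WT, at 23 against 293. From the lowest end, Ereg ranked 24 and Btc 16 of 12999 genes in KO, and Ereg ranked 23 and Btc 24 of 13054 in WT. The second Btc probe set was also under the floor at 24 h, at least 5.64-fold lower in KO and at least 2-fold lower in WT.

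Egfr was 2.22-fold lower at 24 h in KO, at 274 against 609, and 4.60-fold lower in WT, at 257 against 1182. Its log2 change in KO minus that in WT was 1.05, and 1.13 on probe set 1424932_at, a difference that was not tested. The other probe sets did not carry the call in KO, with log2 changes of -0.94 on 1424932_at, -0.65 on 1451530_at, 0.10 on 1460420_a_at, -0.07 on 1432647_at and 0.06 on 1454313_at. With the mean of all its probe sets Egfr no longer passed in either genotype (-0.41 in KO, -0.99 in WT), and at 3-fold it did not pass in KO. The starting level at 8 h differed between the genotypes and the level at 24 h did not by more than the spread between probe sets. For Btc that difference of changes was -1.11 and for Ereg -0.44. Both rest on 24 h values just above the floor, 23 for Btc in WT and 24 for Ereg in KO, so they are coarse and were not tested.

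Tgfa was 2.16-fold higher at 24 h in KO (668 against 309) and 2.10-fold higher in WT (454 against 216). Erbb3 was 2.23-fold higher in KO (118 against 53) and 2.04-fold higher in WT (112 against 55). These genes moved by almost the same amount in both genotypes, with log2 changes of 1.11 in KO and 1.07 in WT for Tgfa and of 1.15 in KO and 1.03 in WT for Erbb3. Neither rise was carried by a second probe set. The other Tgfa probe sets changed by 0.46 and -0.62 in KO and by 0.30 and 0.29 in WT, and the second of Erbb3 stayed under the floor. Hbegf (0.54 in KO, 0.61 in WT) and Erbb2 (-0.11 in KO, -0.35 in WT) did not pass.

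By the rule, 2 of the 7 genes were higher at 24 h and 3 lower in KO, against backgrounds of 6.85% and 5.26%. The counts in WT were also 2 higher and 3 lower, against 5.55% and 6.45%. The members had been chosen with earlier results of these arrays known, so these shares describe them and support nothing further. The genotype and time comparisons share arrays and are not independent of each other.

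**Figure D3:**
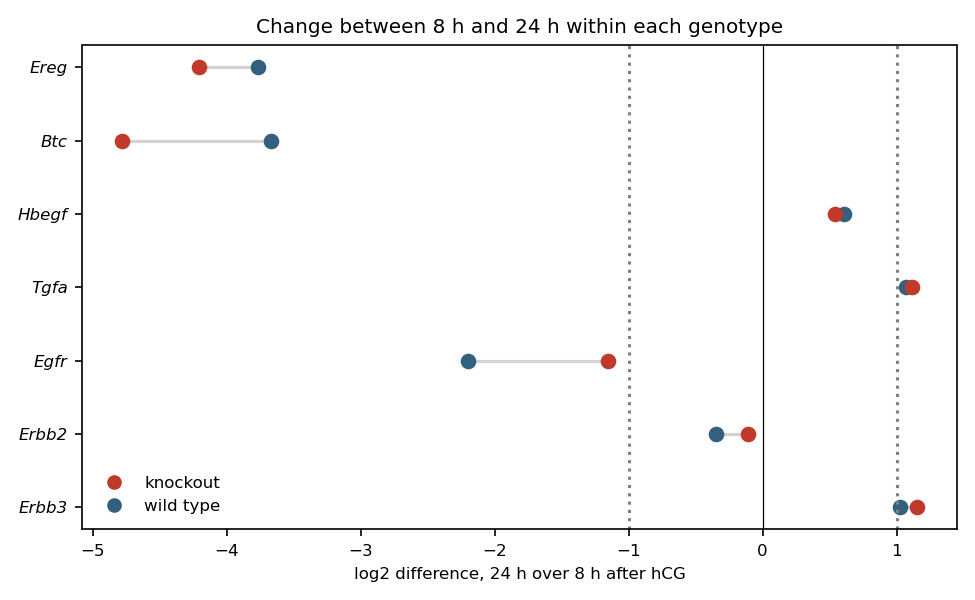
Log2 difference of 24 h over 8 h after hCG (x axis) for the 7 member genes (rows), in knockout (red) and wild type (blue), each point from 1 array per time; dotted lines mark a 2-fold difference. Ereg and Btc lie below -3.5 in both genotypes, Egfr at -1.15 in KO and -2.20 in WT, and Tgfa and Erbb3 just above 1 in both.

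In the knockout, Ereg and Btc were highest at 4 h of the 3 times measured. After normalization, Ereg had an intensity of 8678 at 4 h, 442 at 8 h and, as deposited, 24 at 24 h. Btc had 13837 at 4 h, 1035 at 8 h and, as deposited, 38 at 24 h. Relative to 4 h, Ereg was 19.6-fold and Btc 13.4-fold lower at 8 h, ranks 12 and 30 from the lowest of 13747 genes. The second Btc probe set was 6.31-fold lower, at 125 at 8 h against 790 at 4 h. As deposited, the 4 h array read 15648 for Ereg and 27456 for Btc.

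Egfr, Erbb2 and Tgfa ran the other way between 4 and 8 h in the knockout. Egfr was 3.14-fold (610 at 8 h against 194 at 4 h), Erbb2 3.18-fold (190 against 59.8) and Tgfa 2.43-fold (310.5 against 127.8) higher at 8 h. Hbegf (84.8 against 90.8) and Erbb3 (53.5 against 63.0) did not pass. By the rule 3 of 7 genes were higher, with a background of 18.0%, and 2 lower, with a background of 12.0%. The higher calls rest on the normalization, since none of the 3 passed with the values as deposited, where Egfr differed by 0.94 on the log2 scale. Those of Egfr and Tgfa rest also on the probe set, since the mean of all probe sets gave 0.68 for Egfr and 0.61 for Tgfa, short of the rule. Of single probe sets, Egfr differed by 1.42 on 1424932_at and 1.21 on 1432647_at, which also passed. The normalized 4 h value of 1432647_at was 18, under the floor of 18.75 there, and as deposited it read 41 at 8 h against 33 at 4 h. Egfr differed by 0.03 on 1460420_a_at, 0.20 on 1451530_at and 0.23 on 1454313_at. Tgfa differed by 0.73 on 1450421_at and -0.16 on 1421942_s_at. As deposited, Ereg and Btc differed by -5.14 and -4.72. That setting is no check on their lower calls, because the higher scale of the 4 h array pushes these differences down. With the array medians set equal, Ereg and Btc differed by -4.34 and -3.92.

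Across the arrays at 8 and 24 h, Ereg was ordered WT at 8 h, KO at 8 h, WT at 24 h and KO at 24 h from high to low, each step larger than the spread between probe sets. For Btc the order was KO at 8 h, WT at 8 h, KO at 24 h and WT at 24 h, the last at 23, just above the floor. Egfr was highest in WT at 8 h and next in KO at 8 h, while its values of 274 in KO and 257 in WT at 24 h did not differ beyond that spread. Tgfa ran from KO at 24 h through WT at 24 h and KO at 8 h to WT at 8 h. Erbb3 had both 24 h arrays above both 8 h arrays, with no difference beyond the spread between genotypes at either time, and the values of Hbegf and Erbb2 spanned 0.65 and 0.42 on the log2 scale in all.

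The genes of most similar pattern were sought for Ereg, Btc and Egfr, whose log2 values spanned at least 2 over the 4 arrays at 8 and 24 h. Likeness was the root mean square difference of log2 values, each centred over those 4 arrays, among 809 genes with as large a span. Nearest to Ereg were Fabp4, a fatty acid-binding protein gene (0.36), Star, which carries cholesterol into mitochondria (0.36), and Ptgs2, the inducible prostaglandin synthase (0.40). Ptgs2 had 409 in KO and 865 in WT at 8 h and 11 in KO, under the floor, and 47 in WT at 24 h. The genes were picked by likeness over these same arrays, so a genotype direction shared with the member follows from the choice. Nearest to Btc were Npy, which encodes neuropeptide Y (0.27), Prkg2, a cyclic GMP-dependent protein kinase gene (0.30), and Scg2, which encodes secretogranin II (0.34). Npy had 533 in KO and 201 in WT at 8 h and 26 in KO and 20 in WT at 24 h. At 24 h Scg2 had 24 in KO and 15 in WT, and Btc 38 in KO and 23 in WT. These 24 h differences, near the floor of 22, are coarse. The second Btc probe set read 5 in KO and 6 in WT at 24 h, under the floor in both.

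Nearest to Egfr were Scara5, a scavenger receptor gene (0.07), Twist1, a transcription factor gene of mesenchymal cells (0.11), and Pkdcc, a secreted protein kinase gene (0.12). Scara5 had 1122 in KO and 1989 in WT at 8 h and 483 in KO and 415 in WT at 24 h. Twist1 had 38 in KO and 62 in WT at 8 h and was under the floor at 24 h, at 15 in KO and 16 in WT. Stroma markers were lower in the knockout on the same 8 h arrays, as given above. From 8 to 24 h their median log2 change was 0.77 in KO, where Egfr was lower at 24 h, and -0.62 in WT. The part of these markers' cells in the Egfr pattern was not tested. With 4 arrays, likeness of pattern is a description and says nothing of shared function or control.

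**Figure D4:**
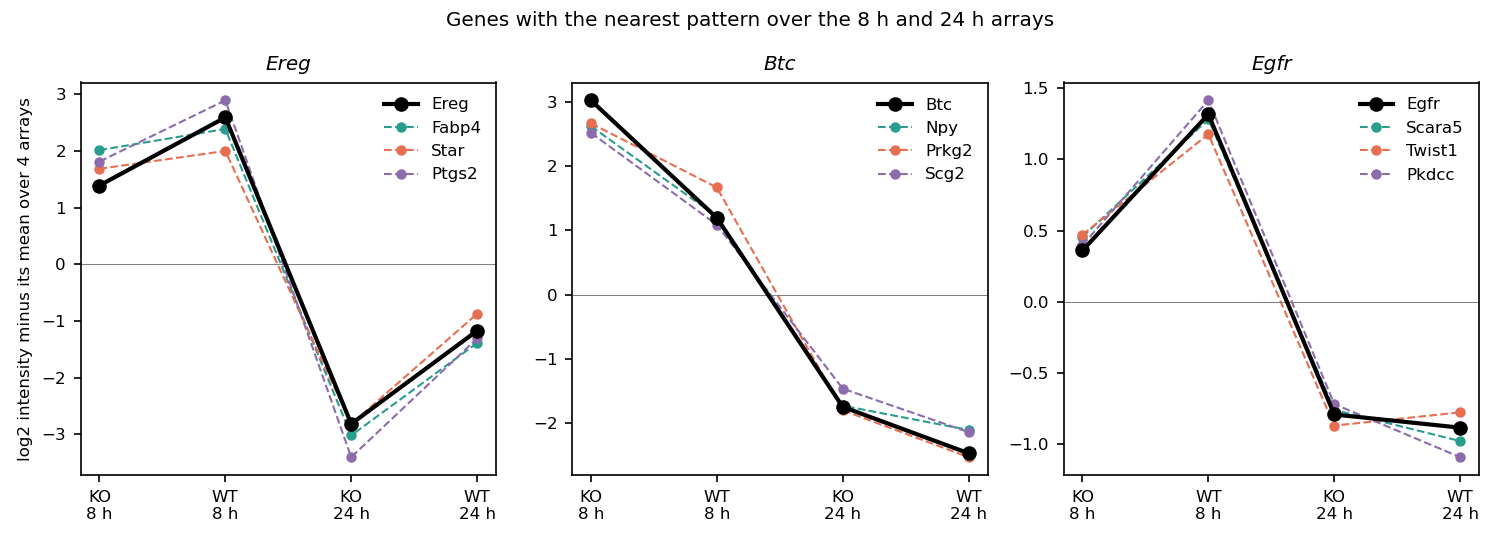
Log2 intensity of Ereg, Btc and Egfr (black) and of the 3 genes nearest to each in pattern (dashed colours), each minus its own mean over the 4 arrays at 8 and 24 h (y axis), by array (x axis, 1 array per point). Ereg and its neighbours are higher in WT at both times, Btc and its neighbours higher in KO at both times, and Egfr and its neighbours are highest in WT at 8 h. The shared directions follow from picking neighbours by likeness over these arrays. Ptgs2 in KO at 24 h is under the floor. The 24 h values of Btc, Npy and Scg2 in WT are near or under the floor.

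The promoters of Btc, Tgfa and Egfr are shown because these genes moved with time or genotype in different directions. The sequences are from RefSeq (GRCm38.p6) and run along the gene's strand from 250 bases before to 50 bases after the start. Windows of 4 of the 7 genes were searched, Erbb2 being the fourth. That of Hbegf was left out of the search, and no promoter entry was found for Ereg and Erbb3. Capitals mark the cyclic AMP response element half-site TGACG, read on either strand. The windows are chr5:91402945-91403244 on the minus strand for Btc, chr6:86194972-86195271 on the plus strand for Tgfa and chr11:16751953-16752252 on the plus strand for Egfr.
Btc: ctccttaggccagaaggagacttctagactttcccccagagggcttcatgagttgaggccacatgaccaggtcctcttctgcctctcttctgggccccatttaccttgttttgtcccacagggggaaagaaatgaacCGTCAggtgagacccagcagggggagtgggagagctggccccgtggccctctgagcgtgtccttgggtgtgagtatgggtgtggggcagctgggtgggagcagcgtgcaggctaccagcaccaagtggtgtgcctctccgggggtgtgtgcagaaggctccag
Tgfa: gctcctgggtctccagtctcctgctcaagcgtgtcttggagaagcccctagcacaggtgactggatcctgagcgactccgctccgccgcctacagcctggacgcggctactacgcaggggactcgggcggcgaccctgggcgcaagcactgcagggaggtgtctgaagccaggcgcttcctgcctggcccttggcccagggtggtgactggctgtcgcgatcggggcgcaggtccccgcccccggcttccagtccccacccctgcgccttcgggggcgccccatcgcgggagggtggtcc
Egfr: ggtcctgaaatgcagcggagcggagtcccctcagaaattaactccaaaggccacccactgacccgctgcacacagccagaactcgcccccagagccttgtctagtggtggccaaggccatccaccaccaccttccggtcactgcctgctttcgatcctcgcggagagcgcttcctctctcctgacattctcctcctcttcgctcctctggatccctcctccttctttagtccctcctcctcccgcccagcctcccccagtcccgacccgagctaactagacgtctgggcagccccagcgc

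The half-site TGACG, part of the site bound by CREB, occurs in the Btc window 113 bases before the start and in that of Erbb2 171 bases before it, and in 20.8% of all 32851 promoters in the table. Neither the full element TGACGTCA (1.79% of promoters), which contains the half-site, nor the C/EBP core TTGCNNAA (10.8%), nor the AP-1 site TGANTCA (7.81%), nor the TATA box TATAAA (13.6%) was found in any of the 4 windows, searching both strands. The Sp1 box GGGCGG (35.7%) occurred at 2 places in Tgfa and 1 in Egfr. The Btc window held 5 CpG dinucleotides, against 24 in Tgfa, 15 in Egfr and a median of 7 over the table. A match or its lack concerns these letters in these windows only.

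Around the members, the pathway's other genes were read by list. Of all genes tested between genotypes, 1.58% were higher and 4.05% lower at 8 h. At 24 h, 3.13% were higher and 3.92% lower. The counts of each list below stand beside these shares, and with so few genes a list they are a description only. Shedding genes, which free the ligands from the membrane, had 1 of 10 past the rule at each time. Rhbdf2, an iRhom that brings ADAM17 to the cell surface, had 208 in KO and 430 in WT at 8 h, 2.07-fold lower. Timp3, an inhibitor of ADAM17 and other metalloproteases, had 354 in KO and 955 in WT at 24 h, 2.70-fold lower. Both read in the same direction at the other time without passing, with 236 in KO and 458 in WT for Rhbdf2 at 24 h and 235 in KO and 440 in WT for Timp3 at 8 h. The list's median was -0.06 at 8 h and -0.07 at 24 h.

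Of 20 adaptor and relay genes with a probe set, none passed at 8 h, and Gab2, a docking adaptor, was 2.05-fold higher at 24 h (1356 in KO, 662 in WT). At 8 h Gab2 lay the other way, at 1134 in KO and 1572 in WT. Medians were 0.08 at 8 h and 0.24 at 24 h. Among 21 genes of feedback and receptor turnover, Dusp4, a phosphatase of ERK, was 4.64-fold higher at 8 h (496 in KO, 107 in WT) and 5.39-fold higher at 24 h (178 in KO, 33 in WT). Errfi1, which binds EGFR and blocks its kinase, was 2.38-fold higher at 24 h (815 in KO, 342 in WT) and had 5817 in KO and 4158 in WT at 8 h. No gene of that list was lower by the rule, with medians of 0.05 and 0.25. These genotype medians stand beside -0.01 at 8 h and 0.05 at 24 h over all genes tested.

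Ovulatory genes known to be induced downstream of EGF-like factors went both ways. Of 12 at 8 h, Ptgs2 was 2.11-fold lower and Has2, whose product makes hyaluronan, was lower by at least 1.82-fold (12 in KO, 40 in WT), while Ier3, an early response gene, was 3.48-fold higher (5969 in KO, 1716 in WT). Tnfaip6 and Ptx3, which help to build the cumulus matrix, did not pass, with 536 in KO and 500 in WT and with 1896 in KO and 1873 in WT. Of 11 at 24 h, Ptgs2 was at least 2.14-fold lower, Fosl1, an AP-1 subunit gene, at least 1.95-fold lower (14 in KO, 43 in WT), and Tnc, which encodes tenascin C, 4.29-fold lower (90 in KO, 386 in WT). Ier3 was 4.19-fold higher at 24 h (3970 in KO, 948 in WT) and Egr1, an early response transcription factor gene, 2.15-fold higher (2369 in KO, 1100 in WT). Medians were 0.08 at 8 h and -0.42 at 24 h. Over all genes tested, 1.58% were higher and 4.05% lower at 8 h, and 3.13% higher and 3.92% lower at 24 h. From 8 to 24 h, 8 of 11 genes of this list were lower in KO and 10 of 12 in WT, against 5.26% in KO and 6.45% in WT of all genes tested. Medians of that change were -2.53 in KO and -1.84 in WT beside 0.07 in KO and 0 in WT over all genes. The list was chosen with earlier results of these arrays known, so these shares describe it and support nothing further.

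**Figure D5:**
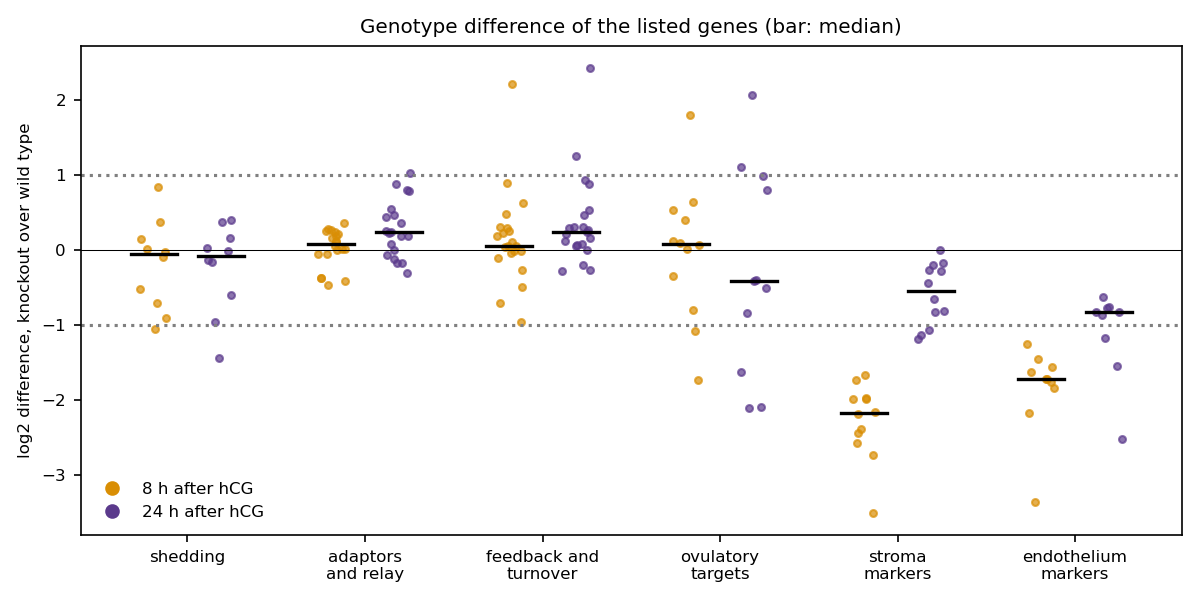
Log2 difference of knockout over wild type (y axis) for each gene of 4 pathway lists and 2 marker lists (x axis) at 8 h (orange) and 24 h (purple), with black bars at the medians and dotted lines at a 2-fold difference; genes under the floor in both arrays are left out. The pathway medians lie between -0.42 and 0.25, and those of stroma and endothelium markers at 8 h at -2.18 and -1.72.

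Of 7 further genes of the ligand and receptor family with a probe set, Epgn and Nrg2 reached the floor in a genotype comparison. Epgn, which encodes the EGF-like factor epigen, had 1110 in KO and 614 in WT at 8 h, short of the rule, and was under the floor at 24 h, at 16 in KO and 17 in WT. Nrg2, a neuregulin gene, had 23 in KO and 25 in WT at 8 h and 25 in KO and 23 in WT at 24 h. Erbb4, the remaining receptor, read 6 on all 4 arrays and Egf 13 or 14, under the floor. The medians over both genes tested at 8 h (0.37) and the gene tested at 24 h (0.12) rest on those values.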

How the data were processed

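The authors' deposited values are intensities of 45101 probe sets on 5 arrays. They were made with affy and RMA, versions not stated, per the submitters' processing notes, from 5 ug of total RNA labelled as biotinylated cRNA, per the labels' protocols. The values are whole numbers on a linear scale, unlike RMA's usual log2 output. Their log2 was therefore used, and rounding makes differences near the floor coarse. Above the floor, the sorted log2 values of the 4 arrays at 8 and 24 h lay within 0.05 of each other on average, while the 4 h array lay higher, and no source used here says whether it was normalized together with them.

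Groups came from the sample titles. Names of probe sets come from the platform annotation, and symbols were brought up to date by Entrez identifier from a RefSeq table of GRCm38.p6. Of them, 34958 had 1 symbol (34754 matched the table), 932 several and 9211 none listed. Values were computed in Python 3.11.15 with pandas 2.3.3. The size rule was run on simulated data with changes larger than it asks for, in genes well above the floor. The simulated noise was smaller than the spread between probe sets here. That check does not cover smaller changes or values near the floor. The members, gene lists and rules were chosen with earlier results of these data known. All member probe sets are named. Of each pathway list, genes past the rule between genotypes are named, up to 8 by size. Markers are given by count and sum, and the few marker or list genes named besides were chosen after their values were seen. Alternatives were 3 scalings, 2 rules for probe sets, 3 further floors, values raised to the floor, and 1.5-fold and 3-fold thresholds.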

Additional observations from a re-analysis of the deposited data

Results flagged for a closer look

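These probe sets had genotype differences of opposite sign at 8 h and 24 h, with 1 array behind each value. None of these differences between times was tested. Probe set 1435888_at of Egfr gave a log2 difference of -0.957 at 8 h and 0.0924 at 24 h. Further Egfr probe sets gave -0.44 at 8 h and 0.35 at 24 h (1460420_a_at), -0.0687 and 0.0375 (1432647_at), and -0.66 and 0.39 (1451530_at). The second Btc probe set (1421161_at) gave 1.49 at 8 h and -0.26 at 24 h, the last between values under the floor. For Hbegf (1418349_at) the values were 0.30 at 8 h and -0.29 at 24 h, for Tgfa (1450421_at) 0.26 and -0.66, and for Erbb3 (1434606_at) -0.0534 and 0.0753. With the spread between probe sets at 0.26 at 8 h and 0.39 at 24 h, 1451530_at of Egfr alone went beyond it at both times, and at 24 h that probe set was under the floor in both arrays (21 in KO, 16 in WT).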

How the results depend on the processing

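No paired analysis was possible because each group has 1 array. The direction of every called member difference held under each alternative run. Of 210 member values recomputed, 196 moved by less than the spread between probe sets and 14 by more, 12 of them with the mean of all probe sets. Many of the 196 could not move, so their number does not measure stability. Raising values to the floor changed none of 35, since no probe set standing for a member lay under it. Leaving out probe sets with _s_at or _x_at endings changed none of 35, since none of these stood for a member. Ereg and Erbb2, with 1 probe set each, could not change with the mean of all probe sets. With that mean, 0 members were higher at 24 h than at 8 h in KO and 0 in WT, since Tgfa (0.31 in KO, 0.55 in WT) and Erbb3 (0.71 in KO, 0.38 in WT) no longer passed, and neither did Egfr as a lower call (-0.41 in KO, -0.99 in WT). It moved the genotype differences of Egfr at 8 h to -0.46, of Btc at 24 h to 0.23 and of Tgfa to 0.26 at 8 h and 0.02 at 24 h, none of them past the rule in either case. It also left 1 member higher at 8 h than at 4 h in KO. That count was 0 with the values as deposited. At 1.5-fold, 2 members were lower in KO at 8 h, Egfr with Ereg, and 1 was higher at 24 h, Btc. At 3-fold, 0 were lower in KO at 8 h, and 0 were higher at 24 h than at 8 h in KO and 0 in WT. At 3-fold the Ereg difference at 24 h and the Btc difference at 8 h still passed. A floor without the 4 h array was added after the data had been examined and changed no count of members by over 1.5 times. The number of arrays limits the precision, and the smallest values are near background.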

Other observations

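Ereg and Btc lie close together on mouse chromosome 5. In the RefSeq gene table, among genes with a probe set on the array, the order there is Epgn, Ereg, Gm19619, Btc and Parm1, with Cxcl2 and Mthfd2l on the side of Epgn and Rchy1 and Thap6 on that of Parm1. The 3 EGF-like genes read in this stretch, Epgn, Ereg and Btc, were all lower at 24 h than at 8 h in both genotypes. Areg, another EGF-like gene, had no probe set among the named genes and was not read. Epgn had 16 at 24 h against 1110 at 8 h in KO, at least 50.5-fold lower, and 17 against 614 in WT, at least 27.9-fold lower. Parm1, next to Btc, did not share that change in WT, with 3115 at 24 h against 3798 at 8 h, and was lower in KO, at 617 against 2463. At 24 h Parm1 was 5.05-fold lower in KO than in WT. At 8 h the 3 ligand genes did not differ in 1 direction between the genotypes, as Epgn (log2 difference 0.85) and Btc (1.83) read higher in KO and Ereg (-1.20) lower. Rchy1 (1041 in KO, 866 in WT at 8 h) and Mthfd2l (265 in KO, 246 in WT at 8 h) did not pass in any genotype comparison or between 8 and 24 h, and Cxcl2 and Thap6 read under the floor on the 4 arrays at 8 and 24 h, as did Gm19619.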
